A study of Mus musculus with 1392 samples.

Results

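Chromatin accessibility was examined at 7 loci that govern whether a cell stays at rest or enters the cell cycle: Cdk6, the D-type cyclin genes Ccnd1, Ccnd2 and Ccnd3, and the cyclin-dependent kinase inhibitor genes Cdkn1a, Cdkn1b and Cdkn1c. The members were all peaks of the deposited table that overlapped a window set around each gene in mouse build mm9. Of 115295 peaks, 89 did so. The windows were chr5:3330000-3550000 for Cdk6, chr7:152100000-152150000 for Ccnd1, chr6:127060000-127125000 for Ccnd2, chr17:47625000-47750000 for Ccnd3, chr17:29215000-29250000 for Cdkn1a, chr6:134855000-134890000 for Cdkn1b and chr7:150630000-150665000 for Cdkn1c. The rule used position and no measured value. A window can hold elements of neighbouring genes, and no peak was assigned to a gene. By RefSeq gene order these neighbours include LTO1 beside Ccnd1, Tigar and Parp11 beside Ccnd2, Taf8 and Bysl beside Ccnd3, and Srsf3 beside Cdkn1a.

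Blood stem cells of adult marrow are mostly quiescent, and the choice to leave that state is made in G1. D cyclins bind CDK4 or CDK6, and the active kinase phosphorylates the retinoblastoma proteins, which frees E2F factors to start S-phase genes. The inhibitors p21, p27 and p57, encoded by Cdkn1a, Cdkn1b and Cdkn1c, bind cyclin and kinase complexes and hold the cell in G1. In the blood system CDK6 is known for setting how readily stem cells leave quiescence, and p57 for keeping them in it.

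The cells were old and young haematopoietic stem cells sorted by flow cytometry from the bone marrow of C57BL/6 mice, and all of them shared 1 sort gate: lineage-negative cells with Sca-1 and Kit (LSK) that carried CD150 and Vwf but neither CD48 nor CD34. Vwf, whose product helps platelets stick to injured vessels, labels the stem cells that lean towards making platelets. ATAC-seq uses a transposase to put sequencing adapters into open DNA. It was run on single cells in plates, on 1060 old and 332 young cells, and the study asked how the makeup of these cells changes with age. The cells fell into 5 numbered sets, with 306 and 380 cells in old 1 and old 2 and the remaining old cells in old 3, and with 181 and 151 cells in young 1 and young 2. The ages of the mice were not given in the sources used here, nor whether a set was an animal, a pool or a plate. Each set was taken as 1 replicate, so p-values measure how far sets differ, which may be technical, and an effect of age cannot be told apart from one of how a set was prepared. The genes of the sort gate were not checked, because no annotation of mm9 was used here to place peaks on genes.

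Reference promoter sequences show what kind of control regions these genes have. The RefSeq promoter table of build GRCm38.p6 held 6 promoters for 4 of the 7 genes (Cdk6, Ccnd3, Cdkn1a and Cdkn1b), each running from 250 bases before to 50 bases after a transcription start. The promoters of Cdk6, whose window held the single peak called different between the ages, and of the inhibitors Cdkn1a and Cdkn1b are printed 5′ to 3′ on the plus strand. Capitals mark matches, on either strand, to 4 motifs: the Sp1 GC box GGGCGG, the E-box CACGTG, the CCAAT box CCAAT, and CATGNNNNNNCATG, the paired core of a p53 response element. The motifs were picked after the sequences were seen, and no matches overlapped in the 4 printed promoters.
Cdk6, chr5:3343643-3343942: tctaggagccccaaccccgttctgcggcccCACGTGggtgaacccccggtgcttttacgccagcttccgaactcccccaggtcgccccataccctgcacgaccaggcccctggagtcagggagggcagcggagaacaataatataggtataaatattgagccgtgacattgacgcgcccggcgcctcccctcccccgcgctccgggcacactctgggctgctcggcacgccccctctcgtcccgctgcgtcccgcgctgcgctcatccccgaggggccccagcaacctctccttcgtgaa
Cdkn1a upstream start, chr17:29090729-29091028: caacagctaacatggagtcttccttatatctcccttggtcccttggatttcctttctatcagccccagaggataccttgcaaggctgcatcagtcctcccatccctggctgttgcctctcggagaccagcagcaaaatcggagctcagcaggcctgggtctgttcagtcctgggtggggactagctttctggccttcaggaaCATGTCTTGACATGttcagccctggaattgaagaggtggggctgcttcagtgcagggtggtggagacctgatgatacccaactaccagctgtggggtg
Cdkn1a downstream start, chr17:29093519-29093818: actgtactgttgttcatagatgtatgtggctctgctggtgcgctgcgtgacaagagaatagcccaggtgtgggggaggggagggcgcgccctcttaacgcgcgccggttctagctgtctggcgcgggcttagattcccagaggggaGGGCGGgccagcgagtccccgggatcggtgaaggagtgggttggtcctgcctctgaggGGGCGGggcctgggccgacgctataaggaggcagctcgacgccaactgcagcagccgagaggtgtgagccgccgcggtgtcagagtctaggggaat
Cdkn1b, chr6:134920151-134920450: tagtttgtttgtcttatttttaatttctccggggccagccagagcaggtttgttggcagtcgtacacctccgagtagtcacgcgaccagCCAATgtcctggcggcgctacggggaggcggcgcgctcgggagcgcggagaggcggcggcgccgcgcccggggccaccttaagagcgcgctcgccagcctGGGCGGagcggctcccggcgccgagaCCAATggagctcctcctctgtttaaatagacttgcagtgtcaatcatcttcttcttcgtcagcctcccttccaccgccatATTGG
The Cdk6 promoter held 1 E-box, a motif found in 7.15% of 32851 promoters of the same length. The upstream Cdkn1a promoter held the p53 core pair, found in 0.712% of all promoters. Cdkn1a is a classical target gene of p53. The downstream Cdkn1a promoter held 2 GC boxes, and the Cdkn1b promoter 1 GC box and 3 CCAAT boxes. GC boxes occurred in 4 of the 6 promoters of these genes and in 35.7% of all promoters, CCAAT boxes in 2 of the 6 and in 37.4%. G and C made up 54.7% to 67.0% of the letters in the 6 promoters, against a mean of 53.8% over all promoters. A match is a description of letters and not of binding. Peaks were named in mm9 positions, so none was placed on these promoters.

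Counts per set totalled 4181770, 2125677 and 1640887 in old sets 1 to 3, and 1159957 and 2589894 in young sets 1 and 2. Levels are given as CPM, counts scaled to an equal library total over the tested peaks after TMM normalization. Of the 89 peaks, 58 had enough counts to be tested, with 41 to 998 counts each and a median of 141.5. The other 31 peaks had 7 to 54 counts over all cells, none averaged above 4.81 CPM, and 24 of them were under 300 bp wide. The members had a median width of 470 bp, and 28 of them were under 300 bp.

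Of the 58 tested peaks, 1 was called different between old and young cells, a peak in the Cdk6 window that was higher in old cells. No D cyclin or inhibitor peak was called (edgeR quasi-likelihood test on sums of counts by set, adjusted p under 0.05 after Benjamini-Hochberg over all 58167 tested peaks). The 1 called peak is 1.72% of the tested peaks, against 3.17% of all tested peaks of the table, where 808 peaks (1.39%) were higher and 1036 peaks (1.78%) lower in old cells. With library totals in place of TMM factors the split over the table was 1051 higher and 770 lower. At an unadjusted p under 0.05, 2 peaks were higher and 8 lower in old cells, or 17.2% of those tested, against 15.4% in the table. With library totals these were 2 higher and 3 lower. The smallest adjusted p among the uncalled peaks was 0.125. A peak that was not called is not shown to be equally accessible at both ages. Old and young sets stood wholly apart at 21 tested peaks (36.2%), against 33.2% in the table. In 7 of these every old set lay above every young set, as at 16.4% of all tested peaks, and in 14 every old set lay below, as at 16.7%.

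Fitted changes of the tested peaks leaned below 0. The fitted change was negative at 40 of 58 peaks (69.0%), against 50.8% in the table, and the median log2 fold change of old over young was -0.22, against -0.0089 in the table. With library totals, 35 of the 58 were negative, with a median of -0.13 against 0.089 in the table. Without young 2, 34 of 60 tested peaks were negative, with a median of -0.042 against 0.058 in the table. The members were chosen with earlier results known, the peaks of a locus share cells and sets, and no test was made of the list.

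**Figure D1:**
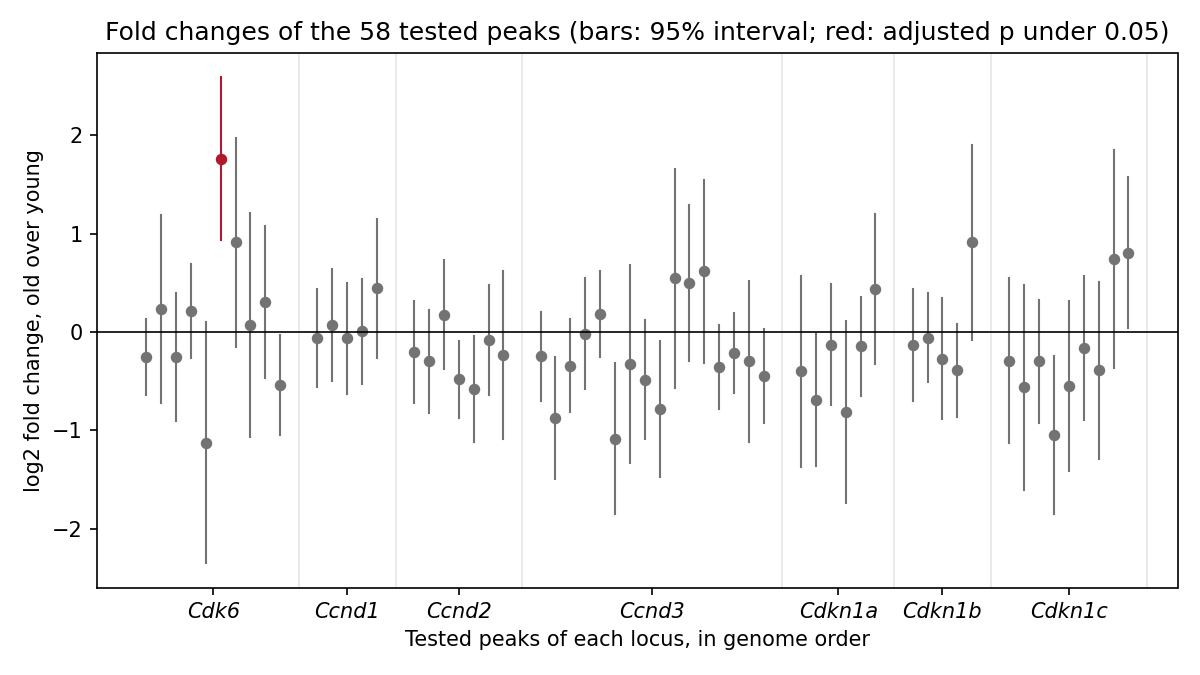
Log2 fold changes, old over young, of the 58 tested peaks in genome order within each locus, plotted on the y axis. Points are edgeR estimates, bars their 95% intervals, and the 1 peak at an adjusted p under 0.05 is in red at 1.76 in the Cdk6 window.

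Cdk6, the kinase partner of the D cyclins, had the longest window, 220 kb, with 26 peaks, of which 10 were tested. The called peak was chr5:3494266-3494832, which is 566 bp wide. It had 12.3, 15.6 and 23.9 CPM in old sets 1 to 3, and 1.99 and 6.28 CPM in young sets 1 and 2. All 3 old sets lay above both young sets, as at 16.4% of all tested peaks, with the lowest old set above the higher young set. The mean was 17.3 ± 5.96 CPM in old sets and 4.14 ± 3.03 CPM in young sets (SD, n = 3 and 2). The log2 fold change was 1.76 ± 0.42 (SE), a fold of 3.39 with a 95% interval of 1.91 to 6.01 (edgeR adjusted p = 0.00830). Among the 808 peaks of the table that were called higher in old cells, it ranked 285 by p.

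The Cdk6 peak rested on 113 counts from 92 old cells and 16 counts from 13 young cells. The 5 cells with the most counts held 10.9% of all its counts, and no cell had more than 4. With cells thinned to 1906 counts each, the peak had a count in 3, 11 and 7 cells of old sets 1 to 3, or 21 of 929, against 0 and 1 cells of young sets 1 and 2, or 1 of 323. The 0 of 177 cells in young 1 allows a share of up to 1.69%, taken as 3 counts of that total and for counting error only. The peak held 5.40%, 6.40% and 8.91% of the Cdk6 window's counts in old sets 1 to 3, and 0.669% and 2.83% in young sets 1 and 2. Its share was higher in every old set than in either young set, which restates the counts behind the call and adds no support. The call was lost without old 3 (log2 fold change 1.54, adjusted p = 0.104) and without young 1 (1.39, adjusted p = 0.0798), and with DESeq2 (1.88, adjusted p = 0.138). Without young 2 the value was 3.03 and the adjusted p 0.00883, and over all alternatives that could test the peak the adjusted p ran from 0.00237 to 0.138.

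No other tested peak of the Cdk6 window passed the threshold. The called peak's nearest neighbours were a peak 2681 bp away, chr5:3497513-3498011, with a log2 fold change of 0.91 and an adjusted p of 0.430, and a peak 3577 bp away that had too few counts to be tested. The strongest Cdk6 peak, chr5:3341113-3344709, was also the widest of all members at 3596 bp. It had 90.5, 94.8 and 87.7 CPM in old sets 1 to 3, and 121.5 and 97.4 CPM in young sets 1 and 2. All old sets lay below both young sets, as at 16.7% of all tested peaks. As a log2 fold change this was -0.25 ± 0.20 (SE, edgeR adjusted p = 0.587). It stood above 99.7% of all peaks in the table by mean CPM, and the called peak above 77.2%.

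**Figure D2:**
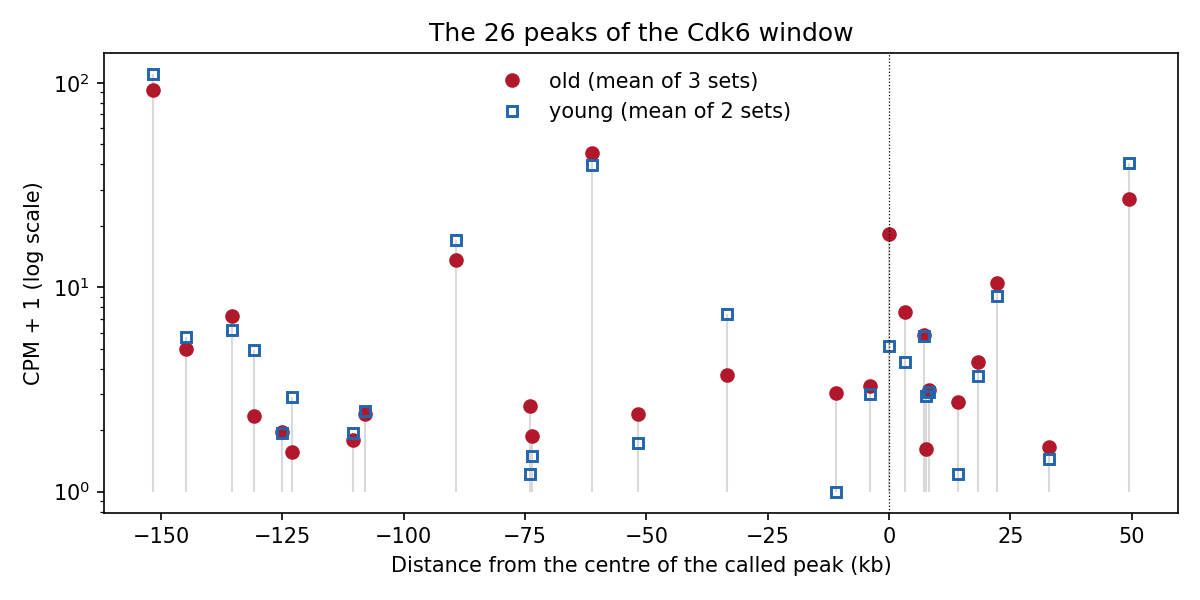
Mean accessibility of the 26 peaks of the Cdk6 window in old sets (filled circles, n = 3) and young sets (open squares, n = 2), as CPM + 1 on a log scale against distance in kb from the centre of the called peak, marked by the dotted line. At the called peak the old mean is 17.3 CPM and the young mean 4.14 CPM, while the strongest peak at the left edge is at 90.99 CPM in old and 109.5 CPM in young sets.

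Summed over the window, Cdk6 peaks had 228.2, 244.3 and 268.3 CPM in old sets 1 to 3, and 297.9 and 222.1 CPM in young sets 1 and 2. The young sets enclosed all old sets. In the fit, the log2 fold change came to -0.063 ± 0.14 (SE), with a 95% interval of -0.33 to 0.20 (edgeR adjusted p = 0.864, over 26315 bins of 50 kb and the 7 windows), a value that crossed 0 under several alternatives. Of the 10 tested peaks, 6 had fitted values above 0 and 4 below. The strongest peak held 39.7%, 38.8% and 32.7% of the window's counts in old sets 1 to 3, and 40.8% and 43.8% in young sets 1 and 2, so its share was lower in every old set. The difference of -5.28 percentage points gave p = 0.2 in an exact two-sided permutation of the sets, a test of 3 sets against 2 that cannot go below 0.1. With each cell counted once per peak the difference was -1.55 points, and with thinned cells it was -7.56 points, with an exact permutation p of 0.1.

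The D cyclin genes had 28 tested peaks among them, and none was called; edgeR gave an unadjusted p under 0.05 at 2 of 7 in Ccnd2, 3 of 16 in Ccnd3 and 0 of 5 in Ccnd1. The 5 were all lower in old cells. Among all tested peaks, 15.4% had an unadjusted p under 0.05, in either direction. With library totals, 2 member peaks were higher and 3 lower at that level over all 7 loci. With thinned cells, 0 of the 20 member peaks that could be tested reached it. DESeq2 called no member peak at any of the 7 loci, against 0.367% of the 115227 peaks it fitted, and gave 5 members an unadjusted p under 0.05, against 4.49% of those peaks. In Ccnd2 6 of 7 tested peaks and in Ccnd3 12 of 16 had fitted values below 0, and in Ccnd1 2 of 5. These genes encode the regulatory partners that carry mitogen signals to CDK4 and CDK6, and cyclin D2 and cyclin D3 are the ones best known from blood cells.

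Ccnd2 encodes cyclin D2, and its strongest peak, chr6:127100954-127102743, also had the smallest p of its window. It had 89.4, 70.3 and 65.1 CPM in old sets 1 to 3, and 100.6 and 110.4 CPM in young sets 1 and 2. Every old set lay below every young set, as at 16.7% of all tested peaks. The mean was 74.9 ± 12.8 CPM in old sets and 105.5 ± 6.91 CPM in young sets, and the log2 fold change of -0.48 ± 0.20 (SE) missed the threshold (edgeR adjusted p = 0.205). With thinned cells it was -0.070 and with each cell counted once -0.30. The counts were spread over 291 old and 152 young cells.

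Over the whole Ccnd2 window the sums were 211.1, 179.7 and 172.7 CPM in old sets 1 to 3, and 227.1 and 247.7 CPM in young sets 1 and 2, again without overlap. The log2 fold change was -0.33 ± 0.13 (SE), with a 95% interval of -0.59 to -0.078 (edgeR unadjusted p = 0.0160, adjusted p = 0.162). Without the strongest peak it was -0.22. The strongest peak held 42.4%, 39.1% and 37.7% of the counts in old sets 1 to 3, and 44.3% and 44.6% in young sets 1 and 2. The difference of -4.70 points gave p = 0.2 in an exact two-sided permutation of the sets, and with thinned cells it was 3.10 points.

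Ccnd3, the gene of cyclin D3, had the most tested peaks. Its window sums were 345.4, 336.5 and 344.0 CPM in old sets 1 to 3, and 398.5 and 431.7 CPM in young sets 1 and 2. The SD of the old sets was 4.77 CPM, and all of them lay below both young sets. The fitted log2 fold change was -0.28 ± 0.12 (SE), with a 95% interval of -0.51 to -0.056 (edgeR unadjusted p = 0.0207, adjusted p = 0.187). With cells thinned to equal depth it was -0.012.

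The strongest Ccnd3 peak, chr17:47732164-47733079, had 50.4, 58.9 and 66.4 CPM in old sets 1 to 3, and 60.8 and 71.8 CPM in young sets 1 and 2. These ranges overlapped, and the log2 fold change was -0.21 ± 0.21 (SE, edgeR adjusted p = 0.685). It held a mean of 17.1% of its window's counts in old sets and 15.9% in young sets. The Ccnd3 peak with the smallest p, chr17:47660200-47660524, had 5.51, 5.21 and 7.30 CPM in old sets 1 to 3, and 10.96 and 13.5 CPM in young sets 1 and 2. This peak had every old set below both young sets, as did 16.7% of all tested peaks. Its log2 fold change was -1.09 ± 0.39 (SE), from 42 old and 41 young counts (edgeR adjusted p = 0.125).

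Ccnd1 encodes cyclin D1, and its window differed little in the fit. The sums were 133.2, 109.9 and 101.6 CPM in old sets 1 to 3, and 106.6 and 119.8 CPM in young sets 1 and 2, with both young sets inside the old range. This gave a log2 fold change of 0.027 ± 0.15 (SE), with a 95% interval of -0.27 to 0.33 (edgeR adjusted p = 0.955). The strongest peak, chr7:152100200-152101544, had 33.0, 31.3 and 21.3 CPM in old sets 1 to 3, and 33.9 and 28.3 CPM in young sets 1 and 2. This peak lies at the lower edge of the window, on the side of LTO1, and was not assigned to either gene. The log2 fold change was -0.063 ± 0.25 (SE, edgeR adjusted p = 0.944) and was above 0 with library totals. The peak with the smallest p, chr7:152129057-152129619, had 16.3, 9.90 and 12.0 CPM in old sets 1 to 3, and 6.97 and 11.2 CPM in young sets 1 and 2, which overlapped. Its log2 fold change was 0.44 ± 0.36 (SE, edgeR adjusted p = 0.603).

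**Figure D3:**
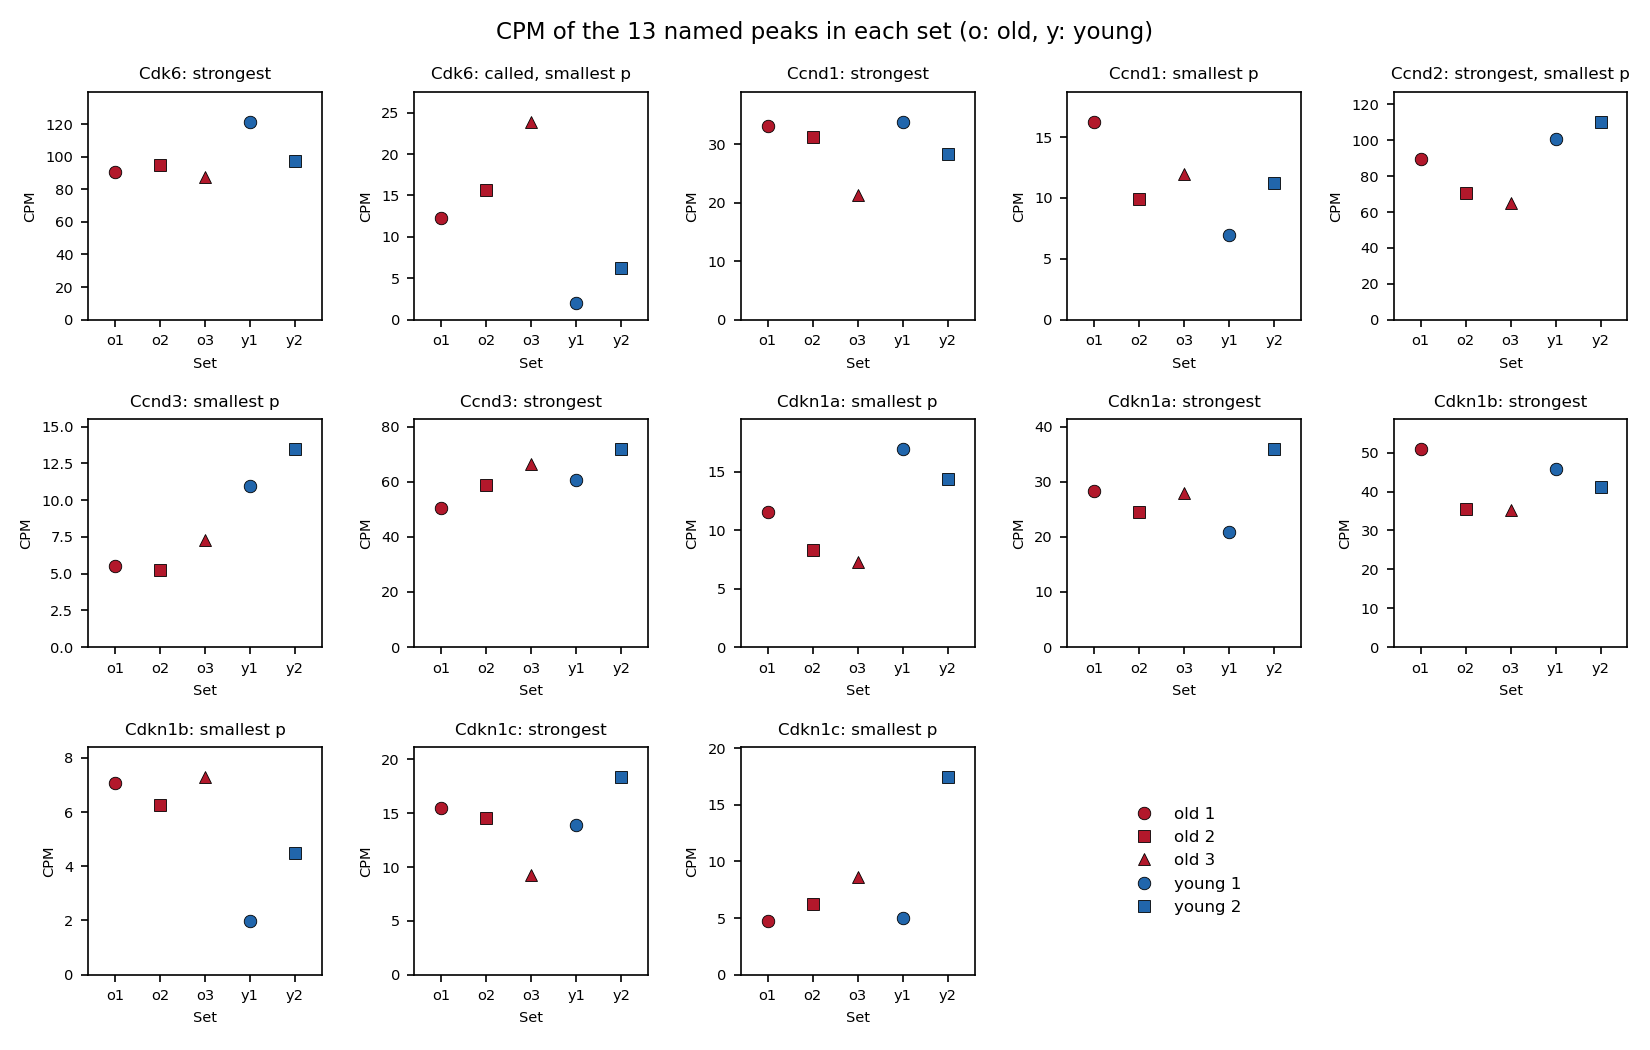
CPM in each set at the 13 peaks named by rule: called, strongest or with the smallest p of its window. Old sets (red) stand left of young sets (blue), each axis starts at 0, and the called Cdk6 peak is the only one of the 13 with an adjusted p under 0.05, at 12.3 to 23.9 CPM in old sets and 1.99 to 6.28 CPM in young sets.

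The inhibitor genes had 20 tested peaks, and edgeR called none of them. At an unadjusted p under 0.05 there were 1 of 6 in Cdkn1a, 0 of 5 in Cdkn1b and 2 of 9 in Cdkn1c. Of the 2 in Cdkn1c, 1 was higher and 1 lower in old cells. Among all tested peaks the share with such a p was 15.4%. Fitted values were below 0 at 5 of 6 Cdkn1a peaks, 4 of 5 Cdkn1b peaks and 7 of 9 Cdkn1c peaks. The 95% intervals of the 3 window changes all held 0.

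Cdkn1a encodes p21, the inhibitor that p53 induces. Its window sums were 87.1, 75.5 and 75.7 CPM in old sets 1 to 3, and 78.7 and 101.4 CPM in young sets 1 and 2, and the ages overlapped. The fitted log2 fold change was -0.20 ± 0.16 (SE), with a 95% interval of -0.52 to 0.12 (edgeR adjusted p = 0.577), and it was 0.055 without young 2. The strongest peak, chr17:29232073-29232777, had 28.3, 24.5 and 27.9 CPM in old sets 1 to 3, and 20.9 and 35.9 CPM in young sets 1 and 2. The young sets stood on either side of the old ones, and the log2 fold change was -0.15 ± 0.26 (SE, edgeR adjusted p = 0.845). The peak with the smallest p, chr17:29218908-29219450, had 11.5, 8.34 and 7.30 CPM in old sets 1 to 3, and 16.9 and 14.4 CPM in young sets 1 and 2. All old sets lay below the young sets there, as at 16.7% of all tested peaks. The log2 fold change was -0.69 ± 0.34 (SE, edgeR adjusted p = 0.322).

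Cdkn1b encodes p27, an inhibitor that is abundant in resting cells. Its window sums were 134.8, 102.1 and 100.9 CPM in old sets 1 to 3, and 122.5 and 133.7 CPM in young sets 1 and 2. Old 1 lay above both young sets and the other old sets below them, and the log2 fold change was -0.17 ± 0.15 (SE), with a 95% interval of -0.47 to 0.13 (edgeR adjusted p = 0.607). The strongest peak, chr6:134869491-134870822, had 50.9, 35.4 and 35.2 CPM in old sets 1 to 3, and 45.8 and 41.3 CPM in young sets 1 and 2. Its log2 fold change was -0.057 ± 0.23 (SE, edgeR adjusted p = 0.943), and was above 0 with library totals. The peak with the smallest p, chr6:134882920-134883255, ran the other way from most peaks of the window. It had 7.08, 6.25 and 7.30 CPM in old sets 1 to 3, and 1.99 and 4.49 CPM in young sets 1 and 2, and every old set lay above every young set. That pattern held at 16.4% of all tested peaks, and the log2 fold change of 0.91 ± 0.51 (SE), from 50 old and 12 young counts, missed the threshold (edgeR adjusted p = 0.391). It was 0.62 without young 1 and 1.79 without young 2.

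Cdkn1c, an imprinted gene that encodes p57, had the densest peaks, 12 in 35 kb, and its window sums were 77.6, 70.8 and 78.4 CPM in old sets 1 to 3, and 66.7 and 97.4 CPM in young sets 1 and 2. The young sets again enclosed the old ones. As a log2 fold change this was -0.16 ± 0.17 (SE), with a 95% interval of -0.49 to 0.17 (edgeR adjusted p = 0.690), and it was 0.21 without young 2. The strongest peak, chr7:150646734-150647500, had 15.5, 14.6 and 9.30 CPM in old sets 1 to 3, and 13.9 and 18.4 CPM in young sets 1 and 2. Its log2 fold change was -0.30 ± 0.32 (SE, edgeR adjusted p = 0.719).

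At the Cdkn1c peak with the smallest p, 1 cell held most of the counts of young 2. The peak, chr7:150647869-150648100, had 4.72, 6.25 and 8.63 CPM in old sets 1 to 3, and 4.98 and 17.5 CPM in young sets 1 and 2, so young 2 alone stood apart. A single cell of young 2 held 23 of the 39 counts of that set, and without that cell's counts young 2 was at 7.18 CPM. The log2 fold change was -1.04 ± 0.41 (SE, edgeR adjusted p = 0.173). With each cell counted once it was -0.19 (adjusted p = 0.941), without young 1 it was -1.50 and passed the threshold (adjusted p = 0.0231), and without young 2 it was 0.33 (adjusted p = 0.910). Over the alternatives that could test the peak the adjusted p ran from 0.0231 to 0.941.

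None of the 7 windows passed the threshold in edgeR, against 4.16% of the 26315 bins of 50 kb, and none in DESeq2, against 1.2% of 31609 bins. The windows span 35 to 220 kb and a bin can hold some of the same peaks, so these shares are not of like units. At an unadjusted p under 0.05 in edgeR there were 2 windows, Ccnd2 and Ccnd3, against 17.2% of the bins, and DESeq2 also gave 2, against 8.3% of its bins. There were 0 such windows with library totals, the replicate block or thinned cells, and 0 without old 2 or without young 2. In both of these all old sets lay below both young sets, as they did in 16.9% of the bins. The fitted change was below 0 in 6 of the 7 windows, in 5 with library totals, and in 4 with thinned cells or without young 2. An adjusted p that misses the threshold does not show equal accessibility: the intervals allow a fold as low as 0.664 for Ccnd2, and as high as 1.25 for Ccnd1. The share of a window's counts held by its strongest peak differed by -2.97 to 2.94 points at the 5 loci other than Cdk6 and Ccnd2, with exact permutation p values of 0.5 to 0.8.

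**Figure D4:**
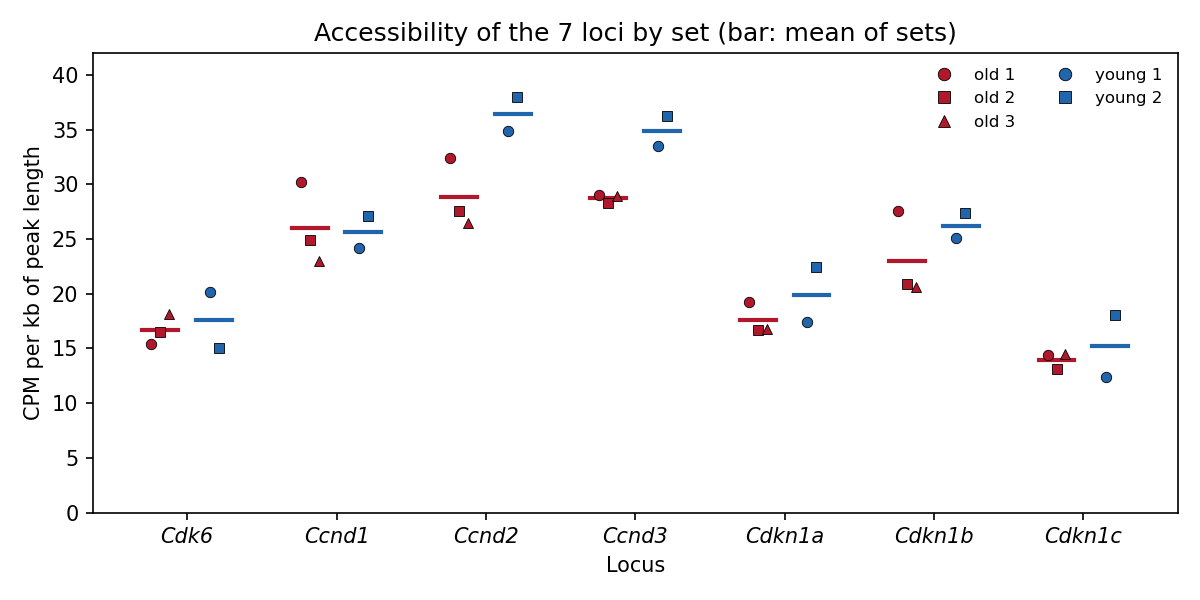
Accessibility of the 7 loci in each set, as CPM summed over the peaks of a window per kb of peak length, with bars at the mean of old sets (red, left, n = 3) and young sets (blue, right, n = 2). At Ccnd2 and Ccnd3 the old sets, at 26.5 to 32.4 and 28.3 to 29.0, lie below the young sets, at 34.9 to 38.0 and 33.5 to 36.3, and at the other loci the ages overlap.

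As a mean over the sets, the level per kb of peak length was highest at the D cyclin loci and lowest at Cdkn1c. Averaged over the 5 sets, the level was 31.9 CPM per kb for Ccnd2, 31.2 for Ccnd3, 25.9 for Ccnd1, 24.3 for Cdkn1b, 18.5 for Cdkn1a, 17.0 for Cdk6 and 14.5 for Cdkn1c. The ranges over sets of every neighbouring pair in this order overlapped. Within sets, Cdkn1b stood above Cdkn1a in 5 of 5, and the other neighbouring pairs kept their order in 3 or 4 of 5. In young sets 1 and 2 Cdkn1b, at 25.1 and 27.4 CPM per kb, stood above Ccnd1, at 24.2 and 27.1. Cdkn1c was not the lowest in young 2, at 18.0 against 15.0 for Cdk6. The Cdk6 window had peaks on 6.72% of its length and the Cdkn1c window on 15.4%, so the low level per kb of these loci went with both sparse and dense peaks.

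Detection in single cells was compared at equal depth. Cells were thinned to 1906 counts, which is the 10th percentile of all cells and left out 84, 13 and 34 cells of old sets 1 to 3, and 4 and 5 cells of young sets 1 and 2. Of the 7 loci, a cell had a count in an average of 1.76, 1.57 and 1.49 in old sets 1 to 3, and 1.75 and 1.66 in young sets 1 and 2. The ages overlapped, and the difference of -0.095 loci gave p = 0.5 in an exact two-sided permutation of the sets. A cell with no count at this depth cannot be read as closed.

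At 1906 counts the share of cells with a count did not overlap between the ages at Ccnd2, and it overlapped at the other loci. How often such shares stand apart at other regions of the genome was not determined, so Ccnd2 cannot be called unusual. The share was 32.0%, 23.7% and 23.2% in old sets 1 to 3, and 33.9% and 32.9% in young sets 1 and 2. Old 1 lay within 1 point of young 2, and the difference of -7.08 points gave p = 0.2 in an exact two-sided permutation of the sets. At 4000 counts per cell the ages overlapped, with a difference of -5.23 points. Ccnd3 was the locus most often seen, in 45.5%, 46.6% and 41.2% of cells in old sets 1 to 3, and in 49.2% and 45.2% in young sets 1 and 2.

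At Cdk6 the share was 33.8%, 34.6% and 33.5% in old sets 1 to 3, and 37.3% and 29.5% in young sets 1 and 2. The old sets lay together between the young ones. Mean shares in old and young sets were 17.0% and 16.2% for Ccnd1, 10.0% and 12.3% for Cdkn1a, 16.9% and 16.3% for Cdkn1b, and 12.4% and 11.8% for Cdkn1c. The exact p values of these 5 loci and of Ccnd3 ran from 0.3 to 1, before any adjustment for 7 comparisons. Without thinning, the differences ran from -20.3 to -8.99 points, and the unthinned share at Cdk6 was 64.7%, 60.5% and 54.8% in old sets 1 to 3, and 70.7% and 77.5% in young sets 1 and 2. Median counts per cell were 9623, 4434 and 3604.5 in old sets 1 to 3, and 6133 and 11807 in young sets 1 and 2.

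**Figure D5:**
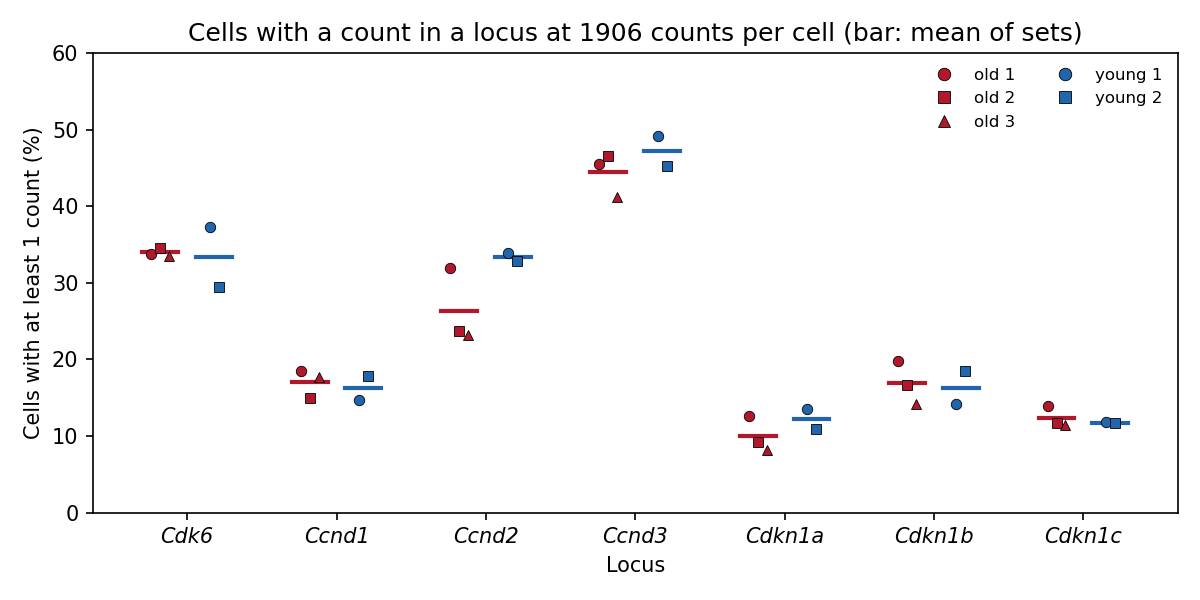
Percentage of cells with at least 1 count in a locus, each cell thinned to 1906 counts, by set, with bars at the mean of old sets (red, left, n = 3) and young sets (blue, right, n = 2). At Ccnd2 the old sets, at 23.2% to 32.0%, do not reach the young sets, at 32.9% and 33.9%. The ages overlap there at 4000 counts per cell, and other regions of the genome were not compared.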

How the data were processed

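Accessibility was measured by plate-based single-cell ATAC-seq, per the labels' protocols, with 1 cell to a sample. The authors deposited a single table of unnormalized counts, with peaks in rows and cells in columns. Picard, SAMtools, Bowtie2, FastQC and Trim Galore are the tools in the submitters' processing notes, which give no versions, and the build there is mm9. Unknown are the peak caller, pooling for peak calls, cut-site shift, cell filters, and whether the counts are of reads or fragments (not given in the sources used here). Kept duplicate reads would raise single entries, and wide peaks collect more counts. Whether peak starts count from 0 or 1 is not stated.

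All 1392 columns matched a title, which gave age and set. Counts were summed per set and fitted over all peaks with edgeR 4.0.16 in R 4.3.3 (TMM, filterByExpr with a minimum count of 10, robust quasi-likelihood test, Benjamini-Hochberg), called under 0.05. Window sums were fitted among bins of 50 kb holding peaks by midpoint, scaled by the peak fit's totals. Standard errors are the log2 fold change over the square root of F, and 95% intervals span 1.96 of them on either side. The step was tested on simulated data. Shares were compared by exact permutation over 10 splits in scipy 1.17.1. Intervals reflect the spread between sets.

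Named peaks are every called peak, the peak with the highest mean CPM and the tested peak with the smallest p in each window. The members, lists and windows were chosen with earlier results of these data known. The alternatives were DESeq2 1.42.0, RLE factors, library totals, count filters, binarized counts, thinned cells, cells with 2000 counts or more, a block for the set number, leaving out each set, peaks of 300 bp or wider, windows without the strongest peak, 100 kb bins and a threshold of 0.01. Other pathway genes and markers of cell types were not analysed here, for lack of an mm9 annotation.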

Additional observations from a re-analysis of the deposited data

How the results depend on the processing

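Precision was limited: the median standard error of the tested peaks was 0.33 on the log2 scale, and 31 of 89 peaks were not tested. No window passed the threshold under any alternative run. The count of called peaks was 0 with DESeq2 and with thinned cells, where the Cdk6 peak fell under the count filter, and 0 to 1 with a set left out; without young 1 the called peak was the Cdkn1c one. In the other alternatives run it was 1, the Cdk6 peak, also at a threshold of 0.01. The set numbers mark no shared animal or batch in the labels. Deviations from the age means correlated at -0.076 and -0.00084 for equal numbers, and at 0.076 and 0.00084 for unequal ones. The deviations of the 2 young sets mirror each other, which fixes these opposite signs, so the values cannot show whether equal numbers are paired. With the replicate block the count of called member peaks was 1, and 1102 peaks of the table were called, against 1844 without it.

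The causes of the following changes were not tested. The strongest Ccnd1 peak was at 0.042 binarized, 0.035 with library totals, 0.023 with a minimum count of 30, 0.057 with the block, and -0.18 to 0.11 with a set left out. The strongest Cdkn1b peak was at 0.042 with library totals, 0.030 with a minimum count of 30 and -0.25 to 0.060 with a set left out, and the strongest Cdkn1a peak at -0.40 to 0.40. The Cdkn1c peak with the smallest p ran from -1.50 to 0.33, and the called Cdk6 peak from 1.39 to 3.03. The Cdk6 window was at 0.047 binarized, 0.035 with library totals, 0.018 thinned, 0.069 without its strongest peak and -0.25 to 0.16 with a set left out. The Cdkn1b window was at 0.070 thinned. With a set left out, the Ccnd1 window ran from -0.075 to 0.15, Cdkn1a from -0.33 to 0.055 and Cdkn1c from -0.36 to 0.21.

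Without thinning, the difference in cells with a count was -14.1 points for Cdk6, -8.99 for Ccnd1, -20.3 for Ccnd2, -17.9 for Ccnd3, -11.4 for Cdkn1a, -12.4 for Cdkn1b and -9.47 for Cdkn1c. At 4000 counts it was 5.68 for Ccnd1, 4.11 for Cdkn1b and 2.85 for Cdkn1c, and for Cdk6 it ran from -3.32 to 4.52 with a set left out. The strongest peak's share differed by -1.55 points for Cdk6 and -1.39 for Ccnd2 binarized, and thinned by 1.72 for Ccnd1, 3.10 for Ccnd2, -1.36 for Ccnd3, -9.60 for Cdkn1b and -11.3 for Cdkn1c. With a set left out it ran from -1.47 to 7.35 for Cdkn1a and from -1.63 to 4.90 for Cdkn1b.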
